A study of Mus musculus with 4 samples.

Results

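Integrins and the focal adhesion proteins that bind their cytoplasmic tails were examined in mouse podocytes as a group of 40 genes. The group holds 12 integrin α chains, 7 integrin β chains and 21 adaptor or kinase genes, chosen by gene symbol from the 54532 genes of the deposited count table, in which all 40 had a row. RNA-sequencing had been done on 4 libraries of the conditionally immortalized podocyte line MPC5, a line cultured to proliferate with interferon-γ at a permissive temperature and to differentiate after both are withdrawn. The IL-12 treatment group (2 libraries) was exposed for 6 h to IL-12 at 400 ng/ml, and the control group (2 libraries) received saline. No genetic change separates the groups, and all libraries come from a single immortalized line. The sources used here do not say whether each library was grown as its own culture, so the p-values measure the spread between these libraries, which may be technical. The comparison asks how IL-12 changed the expression of adhesion genes, since the study was concerned with podocyte injury by this cytokine.

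An integrin is a heterodimer of an α and a β chain, and the pair decides which matrix protein is bound. Talins and kindlins bind the β tail and switch the receptor to its active form. Vinculin, filamin, tensins, zyxin and VASP then link it to actin, while FAK, SRC, paxillin and p130Cas carry the signal. Podocytes hold on to the glomerular basement membrane largely through the laminin receptor integrin α3β1, and loss of α3, β1, talin-1 or ILK in mouse podocytes is known to cause proteinuria.

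The libraries held between 18355379 and 20098012 counts, so that a floor of 3 counts corresponded to 0.149 to 0.163 CPM (counts scaled to library size, here with edgeR's TMM factors), a limit that covers counting error only. The label podocyte was compared with marker genes. Of 10 podocyte markers, 4 stayed below 1 CPM in every library, among them the slit diaphragm gene Nphs1, with at most 0.0529 CPM, and Ptpro, with 0 counts. The other markers were detected, with Synpo at 469 to 489 CPM in the control group and 301 to 307 CPM in the IL-12 treatment group. The summed podocyte list was 2282 to 2311 CPM and 2719 to 2758 CPM in these groups, a direction set by Nes (nestin), which rose from 608 and 603 CPM to 1226 and 1235 CPM. Without Nes, a choice made after seeing the data, the other 9 markers summed to 1679 to 1703 CPM in the control group and 1493 to 1523 CPM in the IL-12 treatment group. The endothelial list (5 genes) summed to at most 0.556 CPM and the leukocyte list (6 genes) to at most 8.01 CPM in a library. The mesangial or fibroblast list (6 genes) summed to 206 CPM in both control libraries and 222 to 231 CPM in the IL-12 libraries. The tubular list (5 genes) summed to 634 to 660 CPM and 518 to 559 CPM, nearly all of it from Lrp2, with Slc34a1, Umod and Epcam at 0 counts. What part these differences had in the results was not tested. Fewer cells of a kind and less RNA per cell cannot be told apart in such libraries.

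After IL-12, transcripts of the main integrin chains of these cells and of most proteins that couple them to actin were upregulated by modest amounts. Those of several minor chains and of the scaffold paxillin were downregulated, while the minor chain Itgb3 rose the most of all chains tested. Of the 40 genes, 34 had enough counts to be tested, and 24 of these passed an adjusted p below 0.05 by edgeR's quasi-likelihood test, 18 upward and 6 downward. That is 70.6%, beside 30.5% of all 14095 genes tested. The corresponding shares of all genes were 16.1% upward and 14.4% downward. Power rises with level, and many of the adhesion genes were abundant: among genes with a mean of at least 100 CPM, 17 of 19 adhesion genes passed, beside 53.7% of 2555 genes. The median log2 fold change was 0.17 over the 34 genes and -0.0022 over all genes tested. Over 2-fold, the limit used by the study, 1 adhesion gene passed upward (Itgb3) and 0 downward, beside 1.61% of all genes, 0.858% upward and 0.752% downward. The treated libraries lay wholly above the controls for 23 of the 34 genes and wholly below for 9, while 62.9% of all genes had such groups without overlap, 31.7% higher and 31.2% lower. With scaling by total counts alone, 17 adhesion genes passed upward and 7 downward, and 40.6% of all passing genes were upward, against 52.8% with TMM.

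**Figure D1:**
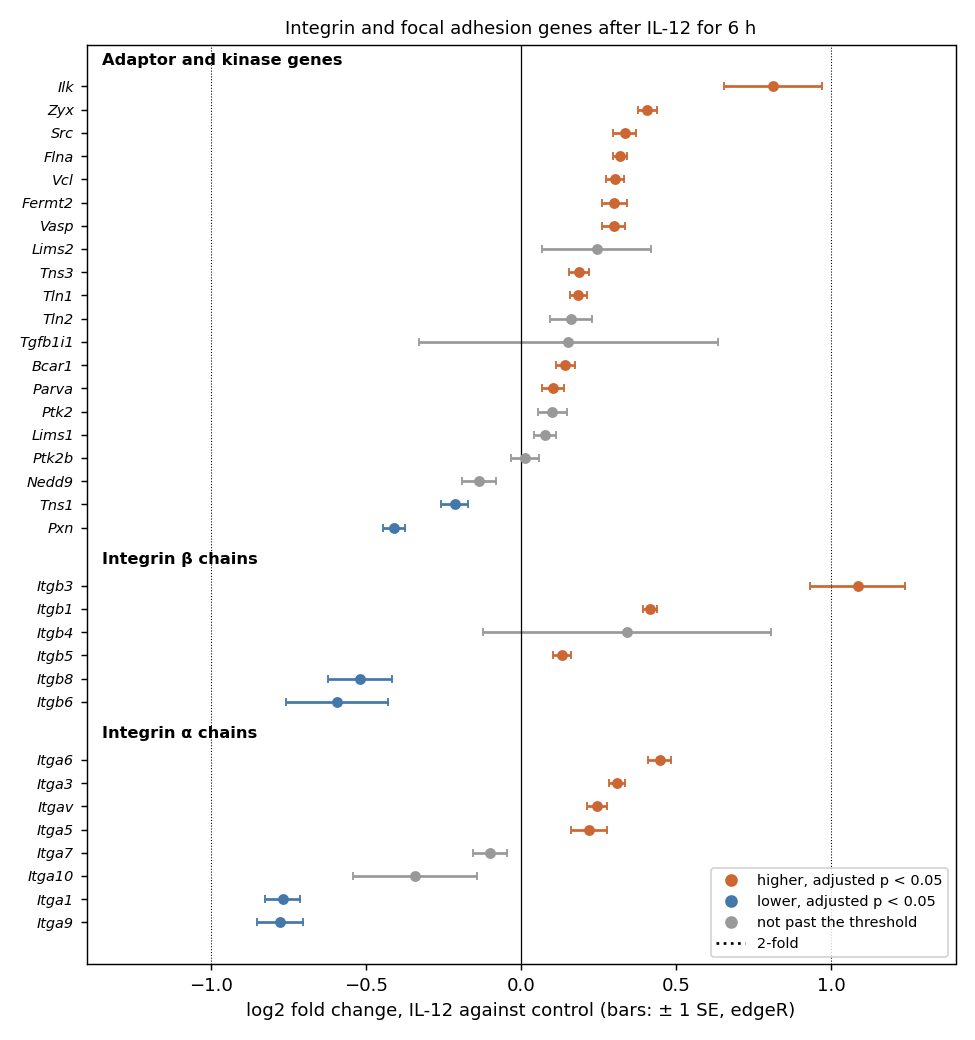
Log2 fold change of the 34 tested genes (x axis, IL-12 treatment group against control group, 2 libraries each), grouped as α chains, β chains and adaptor or kinase genes. Points are edgeR estimates, bars are ± 1 standard error, colour gives the call at an adjusted p below 0.05, and dotted lines mark 2-fold; Itgb3 alone lies beyond 2-fold, and the lowest points are Itga9 and Itga1.

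For 1 strongly called chain, 1 actin linker and 1 chain that fell, the 250 bases before the RefSeq start site are shown, read 5′ to 3′ on the gene's strand in GRCm38.p6: Itgb1, which had the smallest p of the 34 genes (chr8:128685404-128685653, plus strand), Vcl, an upregulated actin linker (chr14:20929148-20929397, plus strand), and Itga1, an α chain that fell (chr13:115101965-115102214, minus strand). Capitals mark matches on either strand to the SRF CArG box, to GGAATG (the core bound by TEAD factors) or to TGANTCA (an AP-1 site).
Itgb1: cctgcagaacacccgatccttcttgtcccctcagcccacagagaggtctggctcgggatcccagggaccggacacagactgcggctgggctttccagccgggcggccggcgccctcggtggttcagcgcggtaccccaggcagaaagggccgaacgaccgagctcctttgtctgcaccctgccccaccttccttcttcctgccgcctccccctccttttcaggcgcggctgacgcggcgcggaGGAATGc
Vcl: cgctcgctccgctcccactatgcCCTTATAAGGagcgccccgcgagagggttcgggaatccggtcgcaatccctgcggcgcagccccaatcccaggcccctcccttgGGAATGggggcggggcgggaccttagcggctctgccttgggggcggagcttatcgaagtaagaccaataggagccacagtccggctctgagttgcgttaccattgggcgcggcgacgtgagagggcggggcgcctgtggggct
Itga1: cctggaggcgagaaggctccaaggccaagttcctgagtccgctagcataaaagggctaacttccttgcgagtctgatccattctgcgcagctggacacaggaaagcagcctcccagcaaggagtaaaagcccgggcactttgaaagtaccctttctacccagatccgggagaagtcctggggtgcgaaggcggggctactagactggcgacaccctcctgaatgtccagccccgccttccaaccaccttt
The Itgb1 window holds 1 match, to GGAATG at position -7 from the start site. The Vcl window holds 2 matches, a CArG box and GGAATG, and the Itga1 window holds 0. Of the 40 genes, 29 had a window of 300 bases (250 before and 50 after the start) in the RefSeq table. A gene counted if any of its windows matched, while the shares over all windows count each window singly, so these are unlike measures. A CArG box was in 3 of the genes (Itgb6, Vcl and Fermt2), beside 1.6% of all 32851 windows. GGAATG was in 4 (Itga10, Itgb1, Vcl and Flna), beside 14.7%, and TGANTCA was in 3 (Zyx, Itga9 and Itga3), beside 7.8%. The matched windows of Itgb6, Itga9, Itga3 and Flna lay at start sites kilobases inside the gene coordinates of the count table. Genes that rose and genes that fell both held such letters (Vcl and Itgb6 for the CArG box, Zyx and Itga9 for TGANTCA), and a match is a description of the letters only.

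Among the α chains, the laminin receptor chain Itga3 was by far the most abundant, and it rose together with Itga6, Itgav and Itga5, while Itga1 and Itga9 fell. Of 12 α chains 8 were tested, and 4 passed upward and 2 downward, beside 16.1% and 14.4% of all genes tested. Levels between genes were compared per kilobase of gene length, as FPKM. In the control group Itga3 (α3) had 253 FPKM, Itgav (αv) 37.0, Itga6 (α6) 17.9, Itga5 (α5) 15.4, Itga7 (α7) 7.65, Itga1 (α1) 6.38, Itga9 (α9) 6.15 and Itga10 (α10) 0.825 FPKM. The libraries of Itga1 and Itga9 overlapped in both groups, so these neighbours could not be ordered, while the order of the other chains named held in each library. Itga3 made up 72.9% and 74.1% of the summed α chain FPKM without IL-12 and 76.0% and 75.1% after IL-12.

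Itga3 (ENSMUSG00000001507, chromosome 11 from 95044474 to 95076801) had 1420 and 1473 CPM in the control libraries and 1820 and 1764 CPM in the IL-12 libraries. The groups did not overlap, and the log2 fold change was 0.31 ± 0.03 (SE, adjusted p = 3.97e-08). Itga6, the other laminin-binding chain that rose, pairs with β1 or β4 (ENSMUSG00000027111, chromosome 2 from 71745616 to 71858416). Its level was 162 CPM in both control libraries and 224 and 217 CPM in the IL-12 libraries, which gave a log2 fold change of 0.45 ± 0.04 (SE, adjusted p = 4.14e-08), the largest rise among the α chains. The laminin-binding chain of muscle, Itga7, had 61.0 and 62.8 CPM in the control group and 59.4 and 55.9 CPM in the IL-12 treatment group (log2 fold change -0.10 ± 0.06 SE, adjusted p = 0.186), so that a difference was not shown.

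The chains that recognize the RGD sequence in fibronectin and vitronectin rose less. Itgav had 393 and 402 CPM in the control libraries and 458 and 485 CPM in the IL-12 libraries (log2 fold change 0.25 ± 0.03 SE, adjusted p = 1.21e-05). Itga5, the fibronectin receptor chain, had 81.5 and 70.9 CPM in the control libraries and 88.3 and 89.0 CPM in the IL-12 libraries. Its log2 fold change was 0.22 ± 0.06 (SE, adjusted p = 0.00713). The control libraries of Itga5 lay further apart than the IL-12 libraries, and the call was lost when control library 2 was left out (0.12) or either IL-12 library, and without a filter on low counts (adjusted p = 0.0595). The third RGD-binding α chain, Itga8, which mesangial cells use to bind nephronectin, had 1 count in a single IL-12 library.

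The collagen receptor chain Itga1 (ENSMUSG00000042284, chromosome 13 from 114953096 to 115101964) fell from 122 and 115 CPM in the control libraries to 65.5 and 74.0 CPM in the IL-12 libraries. The groups were far apart, with a log2 fold change of -0.77 ± 0.06 (SE, adjusted p = 6.66e-09). Itga9, a receptor chain for tenascin-C and osteopontin (ENSMUSG00000039115, chromosome 9 from 118606690 to 118901003), fell to a like extent, from 50.2 and 44.4 CPM to 28.0 and 27.1 CPM. Its log2 fold change was -0.78 ± 0.07 (SE, adjusted p = 1.76e-07). Both chains kept their call in all 11 alternative settings. The collagen receptor chain Itga10 was near 4 CPM and did not pass (log2 fold change -0.34 ± 0.20 SE, adjusted p = 0.222). Of its exon bases, 33.5% are shared with the gene Gm42957 on the same strand, which had 2 counts.

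The remaining α chains were not detectable or close to it. The collagen-binding Itga2 was at 1 and 0 counts without IL-12, and at 2 and 1 with it. Itga11, also collagen-binding, was at 2 and 0 counts, then 6 and 2. The leukocyte chain Itga4 had 0 counts in every library. At this depth no difference could be shown for these collagen-binding and leukocyte chains.

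**Figure D2:**
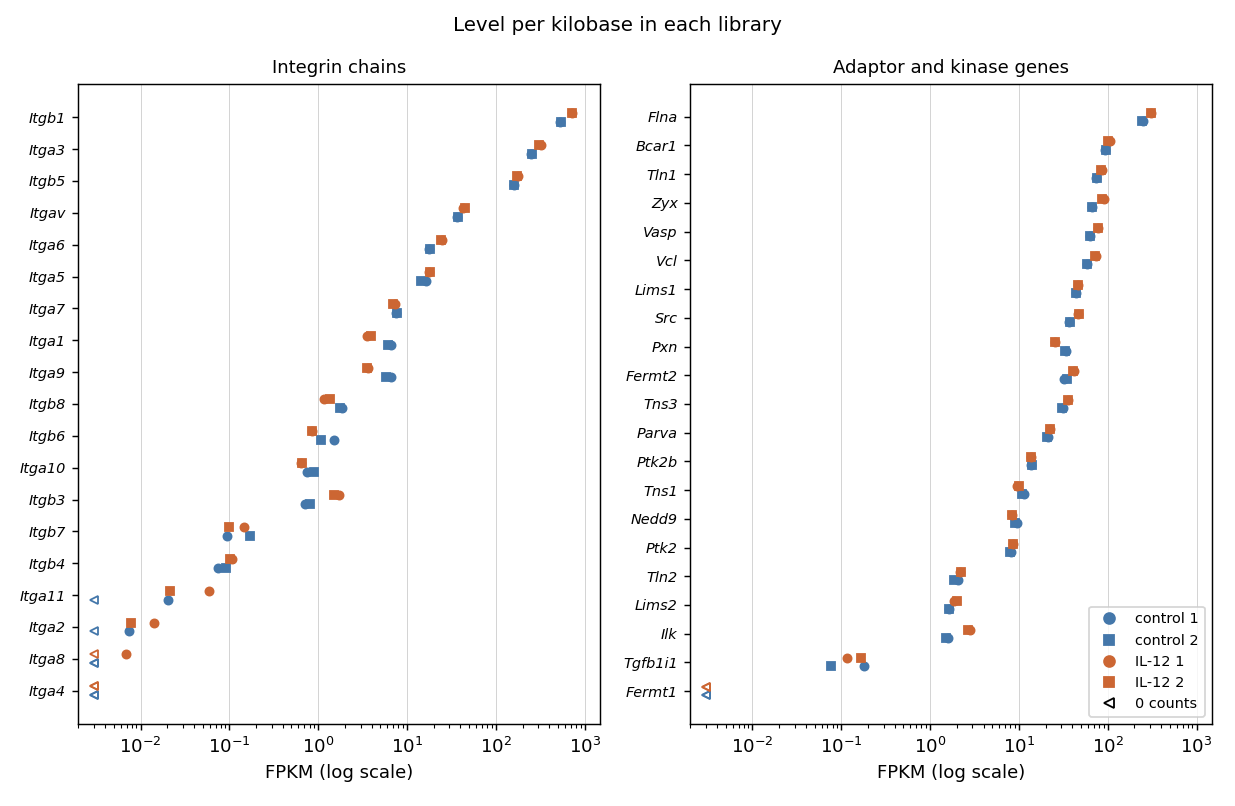
Level of all 40 genes in each of the 4 libraries (x axis, FPKM on a log scale; open triangles at the left edge mark libraries with 0 counts). Integrin chains are on the left and adaptor or kinase genes on the right, ordered by their control mean; Itgb1, Itga3 and Itgb5 lead the chains, and the libraries of a group lie close together except for genes of few counts.

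Among the β chains, the common partner Itgb1 rose the most clearly, Itgb3 rose the most in proportion, and Itgb6 and Itgb8 fell. Of 7 β chains 6 were tested, and 3 passed upward and 2 downward, beside 16.1% and 14.4% of all genes tested. Itgb1 (ENSMUSG00000025809, chromosome 8 from 128685654 to 128733200) had 2178 and 2210 CPM in the control libraries and 2936 and 2913 CPM in the IL-12 libraries. The libraries of a group were within a narrow range and the groups were well apart, with a log2 fold change of 0.41 ± 0.02 (SE, adjusted p = 9.98e-11). It was at rank 45 of the 14095 genes by p-value. Itgb5, a partner of αv for vitronectin, had 570 CPM in both control libraries and 637 and 613 CPM in the IL-12 libraries (log2 fold change 0.13 ± 0.03 SE, adjusted p = 0.00182). As shares of the summed β chain FPKM, Itgb1 took 76.4% and 76.7% without IL-12, then 79.7% and 80.2% with it, while Itgb5 took 23.0% and 22.7%, then 19.9% and 19.4%. Shares sum to a whole, so the lower share of Itgb5 stood beside a higher level.

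The other β chains were far below these, and the order of the αv partners among them changed. Itgb3, the vitronectin receptor chain that pairs with αv (ENSMUSG00000020689, chromosome 11 from 104608000 to 104670476), was at 80 and 90 counts without IL-12 and at 200 and 162 counts with it. These are 4.22 and 4.76 CPM against 10.1 and 8.95 CPM, a log2 fold change of 1.09 ± 0.15 (SE, adjusted p = 2.16e-05). Without IL-12 library 1 the log2 fold change was 0.99, so its place beyond 2-fold rests on that library, while it passed the adjusted p in every setting. Itgb8, which with αv activates latent TGF-β, fell from 20.4 and 19.6 CPM to 12.9 and 15.02 CPM (log2 fold change -0.52 ± 0.10 SE, adjusted p = 0.000703). Itgb6, an epithelial chain with the same partner and ligand, had 10.8 and 7.62 CPM in the control libraries and 6.06 and 6.13 CPM in the IL-12 libraries (log2 fold change -0.59 ± 0.16 SE, adjusted p = 0.00979). The control libraries of Itgb6 were far apart, and without control library 1 its log2 fold change was -0.32 and did not pass. It was also lost without either IL-12 library, with the DESeq2 Wald test and without a filter on low counts.

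Per kilobase, the control libraries had 1.85 and 1.77 FPKM for Itgb8, 1.51 and 1.07 for Itgb6 and 0.715 and 0.807 for Itgb3. The IL-12 libraries had 1.71 and 1.52 FPKM for Itgb3, 1.17 and 1.36 for Itgb8 and 0.852 and 0.862 for Itgb6. Itgb3 was thus the lowest of these αv partners in both control libraries and the highest in both IL-12 libraries, with no overlap between genes within a group. Itgb4, the hemidesmosome partner of α6, was at 10 to 15 counts in each library and did not pass (log2 fold change 0.34 ± 0.46 SE, adjusted p = 0.637). The leukocyte chain Itgb7 had 5 to 9 counts in each library and was not tested.

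**Figure D3:**
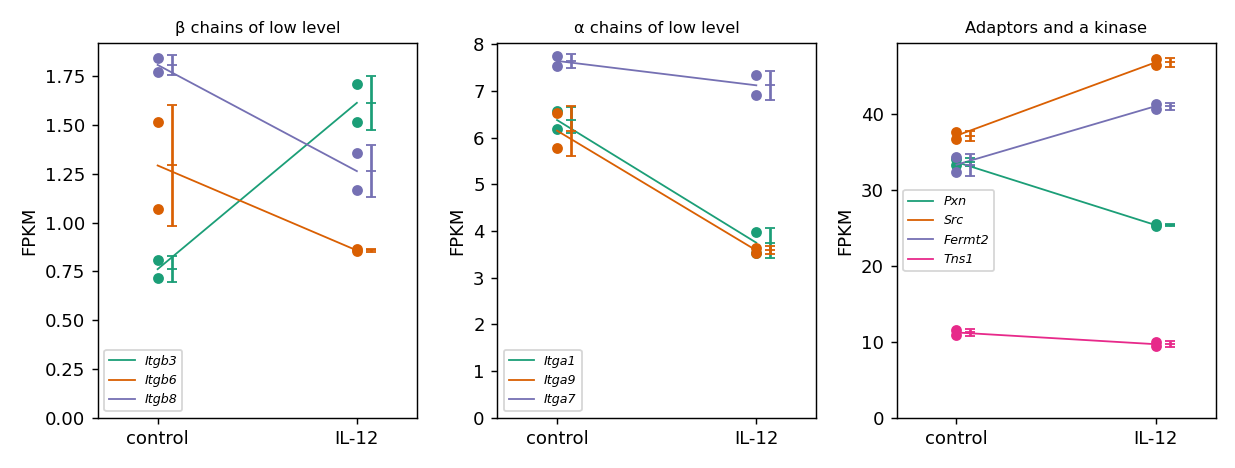
Level in FPKM (y axis, from 0) in the control group and the IL-12 treatment group for β chains of low level, α chains of low level and 4 adaptor or kinase genes. Points are libraries, lines join the group means and bars are ± 1 SD (n = 2); the Itgb3 line crosses those of Itgb6 and Itgb8, and Itga1 and Itga9 fall together.

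Of the 21 adaptor and kinase genes 20 were tested, and 11 passed upward and 2 downward. That is 65%, beside 30.5% of all genes tested (16.1% upward, 14.4% downward) and 53.7% of genes with a mean of at least 100 CPM. The adaptor and kinase genes that rose were mainly genes of the proteins between the β tail and actin. Flna, or filamin A, which crosslinks actin and binds β tails (ENSMUSG00000031328, chromosome X from 74223461 to 74249820), was the most abundant, with 2366 and 2305 CPM in the control libraries and 2919 and 2909 CPM in the IL-12 libraries. Its log2 fold change was 0.32 ± 0.02 (SE, adjusted p = 4.31e-09). Vcl, or vinculin, which ties talin to actin (ENSMUSG00000021823, chromosome 14 from 20929398 to 21033676), rose from 484 and 478 CPM to 599 and 589 CPM. The log2 fold change of Vcl was 0.30 ± 0.03 (SE, adjusted p = 1.81e-07). Of its exon bases 25.5% are shared with Ap3m1 on the opposite strand, whose own log2 fold change was 0.09 (adjusted p = 0.249). In both genes every IL-12 library was above every control library.

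The zyxin and VASP pair, which recruits actin polymerization to strained adhesions, rose as well. Zyx (ENSMUSG00000029860, chromosome 6 from 42349630 to 42360213) had 357 and 361 CPM in the control libraries and 485 and 468 CPM in the IL-12 libraries, which gave a log2 fold change of 0.41 ± 0.03 (SE, adjusted p = 1.16e-08). Vasp (ENSMUSG00000030403, chromosome 7 from 19256929 to 19271817) had 167 CPM in both control libraries and 205 and 206 CPM in the IL-12 libraries, which gave a log2 fold change of 0.30 ± 0.04 (SE, adjusted p = 5.53e-06). The 2 tensins, which bind β tails and actin, moved in opposite directions. Tns3 had 355 and 344 CPM in the control libraries and 396 and 400 CPM in the IL-12 libraries (log2 fold change 0.19 ± 0.03 SE, adjusted p = 0.000155). Tns1 fell from 185 and 175 CPM to 151 and 159 CPM (log2 fold change -0.21 ± 0.04 SE, adjusted p = 0.000702).

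The activators of integrins rose where they were abundant. Fermt2, or kindlin-2 (ENSMUSG00000037712, chromosome 14 from 45458795 to 45530118), had 168 and 178 CPM in the control libraries and 215 and 212 CPM in the IL-12 libraries (log2 fold change 0.30 ± 0.04 SE, adjusted p = 1.04e-05). The epithelial kindlin Fermt1 had 0 counts in every library. Tln1, or talin-1, had 731 and 741 CPM in the control libraries and 844 and 829 CPM in the IL-12 libraries (log2 fold change 0.18 ± 0.03 SE, adjusted p = 2.99e-05). Its paralogue Tln2 had a log2 fold change of 0.16 ± 0.07 (SE, adjusted p = 0.0861), which was 0.22 and passed without control library 1 (adjusted p = 0.0491) and was 0.10 without control library 2 (adjusted p = 0.448). Talin transcript was mostly that of talin-1, with 36.5 to 40.3 times the FPKM of Tln2 in each library and no order between the groups.

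Of the kinases, Src passed the test and the focal adhesion kinases did not. Src (ENSMUSG00000027646, chromosome 2 from 157418444 to 157471862) had 160 and 165 CPM in the control libraries and 203 and 207 CPM in the IL-12 libraries, which gave a log2 fold change of 0.33 ± 0.04 (SE, adjusted p = 1.85e-06). Ptk2, the gene of FAK, had 95.0 and 93.1 CPM in the control libraries and 100 and 102 CPM in the IL-12 libraries. The groups did not overlap, but the log2 fold change of 0.10 ± 0.05 (SE) had an adjusted p of 0.113. Its paralogue Ptk2b (PYK2) had 100 and 103 CPM in the control libraries and 102 CPM in both IL-12 libraries (log2 fold change 0.01 ± 0.05 SE, adjusted p = 0.883). The sign of Ptk2b turned with upper-quartile scaling, with total counts and without control library 1. Per kilobase of deposited length (11803 bases for Ptk2 and 7398 for Ptk2b), Ptk2 had 0.566 to 0.622 times the level of Ptk2b. Those lengths are all annotated exon bases of a gene, so the ratio depends on them and the isoforms expressed were not examined. The values for the kinases are transcript levels and do not measure kinase activity.

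The scaffolds did not move as a group. Pxn, or paxillin, the docking protein for FAK and vinculin (ENSMUSG00000029528, chromosome 5 from 115506676 to 115555987), fell from 280 and 273 CPM in the control libraries to 209 and 207 CPM in the IL-12 libraries. Its log2 fold change was -0.41 ± 0.04 (SE, adjusted p = 4.74e-08), and it kept its call in all 11 alternative settings, with values from -0.45 to -0.39. Its paralogue Tgfb1i1 (Hic-5), an adaptor induced by TGF-β in other cells, had 8 to 19 counts in each library and did not pass (adjusted p = 0.857), with a sign that turned without control library 2 or IL-12 library 2. Pxn had 150 to 439 times the FPKM of Tgfb1i1, a range set by the few counts of the latter. Bcar1, or p130Cas, a substrate of SRC at adhesions, had 423 and 432 CPM in the control libraries and 480 and 463 CPM in the IL-12 libraries (log2 fold change 0.14 ± 0.03 SE, adjusted p = 0.00155). Nedd9, its paralogue, had 60.0 and 57.3 CPM in the control libraries and 53.1 and 53.7 CPM in the IL-12 libraries. The log2 fold change of Nedd9 was -0.14 ± 0.06 (SE, adjusted p = 0.0726), and it passed downward with upper-quartile scaling and with total counts. The FPKM ratio of Bcar1 to Nedd9 was 9.88 and 10.6 without IL-12 and 12.7 and 12.1 with it.

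ILK, PINCH and parvin form a complex that binds β tails. Lims1 (PINCH-1) had 213 and 216 CPM in the control libraries and 224 and 229 CPM in the IL-12 libraries, and its log2 fold change of 0.08 ± 0.04 (SE) did not pass (adjusted p = 0.120). Parva (α-parvin) had 216 and 211 CPM, then 230 and 228 CPM, with a log2 fold change of 0.10 ± 0.04 (SE, adjusted p = 0.0364). The call for Parva was lost in 9 of 11 alternative settings, among them the model with a replicate block and the omission of each library in turn. Lims2 (PINCH-2) was near the level of Ilk and did not pass (log2 fold change 0.24 ± 0.18 SE, adjusted p = 0.335). The level of Lims1 was 23.4 to 27.4 times that of Lims2 per kilobase.

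The counts of Ilk were 83 and 79 without IL-12 and 152 and 133 with it. Its log2 fold change was 0.81 ± 0.16 (SE, adjusted p = 0.000619). At 1.56 FPKM in the control group it was below its partners Lims1, at 43.9 FPKM, and Parva, at 21.02 FPKM. In the annotation of GENCODE M21, 89.7% of the exon bases of Ilk (chromosome 7 from 105736592 to 105742925) are also exon bases of a gene on the opposite strand, 76.7% with Taf10 and 12.9% with Rrp8. This was the highest share among the 40 genes, and 27 of them shared none. Taf10 and Rrp8 had 3681 and 3483 counts over the 4 libraries, against 447 for Ilk, and both rose, with log2 fold changes of 0.23 (adjusted p = 0.00967) and 0.50 (adjusted p = 5.76e-06). How the counting treated reads in shared bases is not given in the sources used here, so the level and the change of Ilk are uncertain.

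**Figure D4:**
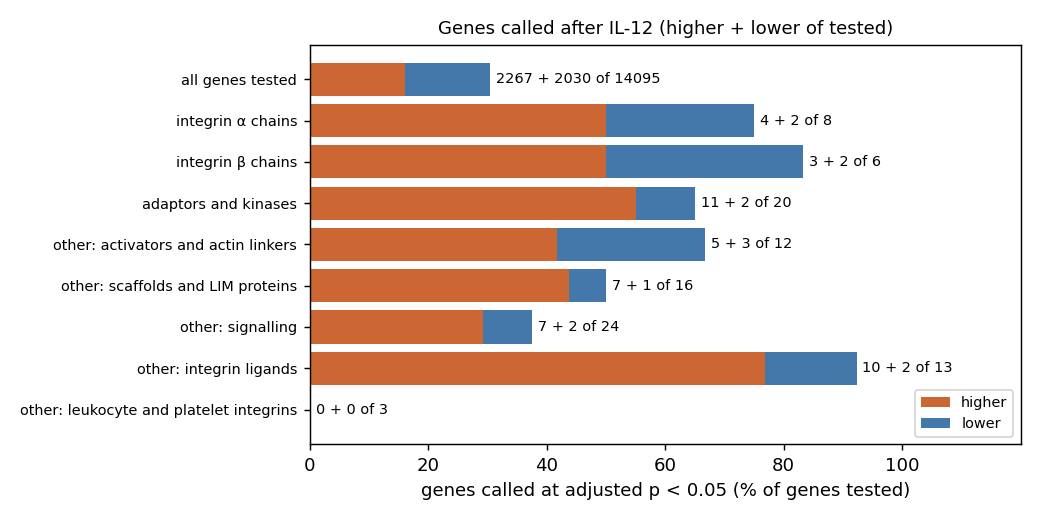
Share of tested genes that passed an adjusted p below 0.05 by edgeR (x axis, percent; upward in orange, downward in blue) in all genes, the 3 groups of adhesion genes and the lists of other focal adhesion genes. Bar labels give upward plus downward calls of the genes tested, from 0 of 3 leukocyte and platelet integrins to 12 of 13 integrin ligands, beside 30.5% of all genes. The groups and lists were chosen with earlier results of these data known.

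Other genes of the pathway were read from a list of 79, chosen by function with earlier results of these data known. Of these, 68 were tested and 29 passed upward and 8 downward (54.4%, beside 30.5% of all genes). Many of the 68 were abundant as well. Among all genes with a mean of at least 10 CPM 39.9% passed, and with at least 100 CPM 53.7%. The median log2 fold change of the 68 genes was 0.08. Of 12 tested activators and actin linkers 5 passed upward and 3 downward. Actn1 (α-actinin-1) had a log2 fold change of 0.61 (adjusted p = 2.03e-11). Actn4, the α-actinin mutated in a familial podocyte disease, had 1154 CPM in the control group and 1297 CPM in the IL-12 treatment group (log2 fold change 0.17, adjusted p = 6.07e-05). Kank1, which couples talin to microtubules, was named after its value was seen and fell by 0.80 on the log2 scale (adjusted p = 9.67e-09).

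Of 16 scaffolds and LIM proteins 7 passed upward and 1 downward (50%, beside 30.5% of all genes tested). Pdlim1, which binds α-actinin, had a log2 fold change of 0.92, the largest rise of that list (adjusted p = 2.51e-10). The 1 that fell was Lpxn (leupaxin), a paxillin relative, by 1.98 on the log2 scale (adjusted p = 0.00221), from 1.37 CPM to 0.342 CPM. Of 24 signalling genes 7 passed upward and 2 downward (37.5%, beside 39.9% of all genes with a mean of at least 10 CPM). The collagen receptor kinase Ddr1 had the smallest p of these signalling genes, falling from 475 to 298 CPM (log2 fold change -0.67, adjusted p = 1.51e-11). Of the leukocyte and platelet integrins, 3 of 7 were tested and 0 passed by edgeR. The β2 chain Itgb2 had 0.819 CPM in the control group and 0.761 CPM in the IL-12 treatment group (adjusted p = 0.897).

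The ligands of integrins had the largest share of calls among these lists, with 10 of 13 tested genes passing upward and 2 downward. That is 92.3%, beside 30.5% of all genes tested and 53.7% of genes with a mean of at least 100 CPM. All ligands were chosen with earlier results of these data known, so the rank of this list may reflect the choice. Ctgf, Lamb3 and Spp1, which were part of that choice, were beyond 2-fold, with log2 fold changes of 1.55, 2.45 and 1.13. Fn1, the fibronectin bound by α5β1 and αvβ3, had a log2 fold change of 0.38 (adjusted p = 1.69e-10), and Cyr61, a matricellular ligand of αvβ3, of 0.44 (adjusted p = 4.72e-10). The downward ligands, also named after their values were seen, were Lama5, a chain of the laminin of the mature glomerular basement membrane, at -0.29 (adjusted p = 4.74e-08), and Npnt (nephronectin), at -0.25 (adjusted p = 3.93e-06). Vtn, the gene of vitronectin, had 0 counts in every library.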

How the data were processed

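The authors deposited raw counts per gene and FPKM values for 4 libraries. The submitters' processing notes name HISAT2, StringTie and the build mm9, yet the deposited coordinates equal those of GENCODE M21 (GRCm38) for 98.3% of 54409 shared genes and for 39 of the 40 adhesion genes (not Lims2), so they are given in GRCm38. The counting program and any use of strand are not given in the sources used here. The deposited FPKM is the count per kilobase and library total, times 1 factor per library (0.985 to 1.02). FPKM values printed here were computed from the counts, the deposited gene lengths and TMM factors (0.985 to 1.015). For the adhesion genes other than Lims2, the deposited length equals all annotated exon bases of the gene. FPKM thus compares genes by that length and not by the length of the isoform expressed.

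Counts were filtered by edgeR's filterByExpr (minimum count 10, minimum total 15), which kept 14095 genes, and tested by edgeR 4.0.16 (R 4.3.3) with its quasi-likelihood test, two-sided, without a block. P-values were adjusted by the Benjamini-Hochberg method over all genes tested. All adjusted p-values in the text are from this test unless another is named. Standard errors are the log2 fold change over the root of F. Within a group, libraries were further apart than counting error alone (chi-square per degree of freedom 2.2 and 2.5). An exact permutation test of 2 against 2 cannot go below 0.333, so p-values rest on the spread edgeR shares across genes. The 11 alternatives were 3 other scalings (DESeq2 size factors, upper quartile, total counts), the DESeq2 1.42.0 Wald test, 2 other filters, a replicate block and each library left out. The script was tested on simulated counts. The adhesion genes and the lists were chosen with earlier results of these data known. The 12 genes with the smallest p were described in full, as was Itgb3, the 1 gene beyond 2-fold, which was added after its values were seen, and the others in short. Some genes of the lists are not reported here by name. Figures were drawn with matplotlib 3.10.9.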

Additional observations from a re-analysis of the deposited data

How the results depend on the processing

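Each fit was repeated under the 11 alternatives, which gave 373 values for the 34 tested genes: 347 kept direction and side of the threshold, 18 lost the call, 3 gained it and 5 turned sign. Counted among the 347 are Itgb4 and Tgfb1i1 with the DESeq2 Wald test, which kept direction but were given no adjusted p. The adhesion genes called numbered 21 to 24, and 21 to 24 of these were among the original 24. The sign turned for Ptk2b with upper-quartile scaling (-0.0040), total counts (-0.029) and without control library 1 (-0.0086), and for Tgfb1i1 without control library 2 (-0.34) and without IL-12 library 2 (-0.12). With each library left out in turn, the log2 fold change ranged from -0.0086 to 0.031 for Ptk2b and from -0.34 to 0.90 for Tgfb1i1. Itgb6 lost its call with the DESeq2 Wald test, without a filter on low counts and in 3 of the 4 fits with a library left out, which left 1 β chain falling, and with libraries left out these counts ranged from 1 to 2. Over 2-fold, 0 to 1 adhesion genes passed with a library left out, 0 of them without IL-12 library 1. With the DESeq2 Wald test, 5 of the other focal adhesion genes fell, and 2705 of all genes passed, 1492 upward and 1213 downward, of which 103 were beyond 2-fold, 64 upward and 39 downward. With a library left out, 2796 to 3767 of all genes passed, 1523 to 1998 of them upward and 1273 to 1769 downward. Those fits assume that a lone library varies like the other group.

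With the replicate number as a block, 23 adhesion genes passed, 17 upward and 6 downward, and the only call lost was that of Parva. The deviations of same-numbered libraries from their group means had a correlation of -0.032 across genes, and no source says that the numbers mark a shared culture. Genes under 20 counts per library (Itgb4, Tgfb1i1 and the 6 not tested) limit what the depth can show.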
